A study of Rattus norvegicus with 24 samples.

Results

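Hearts of rats given metformin for 3 days were compared with hearts of rats given vehicle for the same time, across all genes on the array. Of the 24 arrays in the series, the 8 titled as day 3 hearts were taken, 4 from each arm. Metformin is a biguanide used against type 2 diabetes. The metformin group consisted of male RccHan Wistar rats, an outbred stock, aged 7 to 8 weeks when they entered the study, that received 800 mg/kg by gavage on 3 consecutive days. The control group had the same stock, sex and age and received the vehicle alone, a mixture of ethanol, a Kolliphor solubiliser and tap water. The labels name no disease model or further agent in either arm, and all animals had standard chow and were housed 2 or 3 to a cage. The tissue was the apex of the left ventricle, and each array held 1 animal. Groups had 5 animals by design, and arrays of 4 are used here. The other 16 arrays, from days 1 and 14 of the same dosing, entered the estimate of spread and the comparison between days.

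The heart takes most of its energy from fatty acids and uses glucose, lactate, ketone bodies and amino acids beside them. Leucine, isoleucine and valine, the branched-chain amino acids, are first transaminated in mitochondria and then committed to oxidation by a dehydrogenase complex that a kinase switches off and a phosphatase switches on. Glycogen breakdown is started by phosphorylase kinase, which activates glycogen phosphorylase. Metformin enters cells through organic cation transporters, lowers the activity of respiratory complex I and activates AMPK, the kinase that responds to a low energy charge.

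Values are log2 intensities. Differences subtract the control mean from the metformin mean and come with a standard error (SE), and n was 4 arrays per arm throughout. A list's score on an array is the mean deviation of its members from their own means over the 24 arrays, in log2 units. Array medians lay between 4.68 and 4.95 (log2). The scale of the deposited values runs higher than a scanner can record, so fold changes may be stretched, and values near the top, at about 19.9, are compressed. The number of arrays limits the precision. In whole tissue, fewer cells of a type and less RNA per cell cannot be told apart. The titles name the heart and no cell type. Cardiomyocyte markers were bright: cardiac actin (Actc1) stood at 19.85 in both arms, troponin T (Tnnt2) at 17.57 in both and phospholamban (Pln) at 19.85 and 19.86. Actc1 and Pln sit near the top of the scale, where a difference between the arms is poorly resolved. The cardiomyocyte score lay between -0.02 and 0.02 on all 8 arrays, although several of its members sit close to the top of the scale. Control replicate 2 stood apart from the other controls. Its erythroid score was 1.56 against -0.29 to -0.08 in the other controls, and its endothelial score was -0.87 against -0.22 to 0.45. Without that array the number of genes called falls from 76 to 27, of which 25 are among the 76.

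Of 16031 genes tested with limma, 76 were called at an adjusted p under 0.05, which is 0.474% of all genes. These counts rest on the spread estimated from all 24 arrays. With only the 8 day 3 arrays 3 genes were called, of which 2, Mylk3 and Dcxr, are among the 76, so the calls of all other genes named below, such as Phkg1, Ivd and Bcat2, end there. Of the 76, 68 were lower with metformin (0.424%) and 8 were higher (0.0499%). The arms did not overlap in any of the 76, against 6.37% of all genes tested (4.2% lower and 2.17% higher). The calls were made on these same values, which favours arms that do not overlap, so this is no separate evidence. Uncalled list members named below were mostly picked for a small p, which favours it too. For them, arms apart only describes the values. The falls ran from 1.19-fold to 2.32-fold with a median of 1.36-fold, and the rises from 1.21-fold to 1.57-fold. Only 2 of the 76, Dcxr and Phkg1, passed 2-fold. Called genes were brighter than most, with a median level of 9.96 against 6.91 for all genes, and their median SD was 0.13 in controls and 0.12 with metformin, against 0.15 and 0.13 for all genes. Of the 76, 18 belonged to a pathway or marker list and 58 to none, while 766 of all 16031 genes tested belonged to a list. Lists and members were chosen with earlier results of these data known, so the 18 say nothing about the lists as a whole. Over all genes the median difference was -0.01 and 51.6% lay below 0. A total of 1795 genes (11.2%) had an unadjusted p under 0.05.

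**Figure D1:**
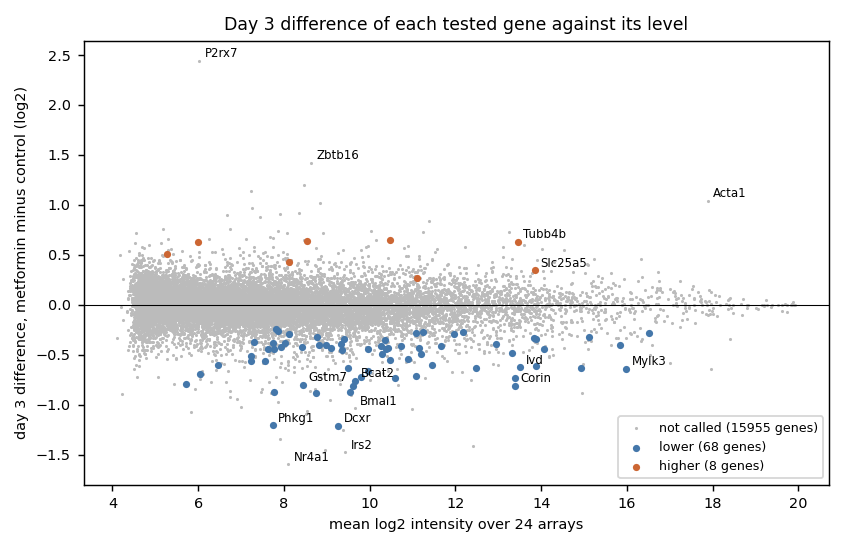
Each point is a gene, with its mean log2 intensity over 24 arrays on the x axis and its day 3 difference (metformin minus control, log2) on the y axis. The 68 genes called lower (blue) and the 8 called higher (orange) lie at moderate differences and at mean levels from 5.26 to 16.51, while the largest differences, such as P2rx7 at 2.44, Nr4a1 at -1.60 and Irs2 at -1.48, belong to genes that were not called.

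Branched-chain amino acid breakdown held the most calls of any list, though the lists were chosen with earlier results of these data known. Of 16 tested genes of leucine breakdown and the shared steps, 3 fell, Ivd, Bcat2 and Ppm1k, and 14 of the 16 differences were below 0, with a median of -0.24. Of 15 genes of valine, isoleucine and propionate breakdown, 1 fell, Aldh6a1, and 10 were below 0, with a median of -0.14. Over all genes tested, 0.424% were called lower and 51.6% lay below 0. The 3 called genes of leucine breakdown sit at different steps of the route. Promoters were taken for the called genes of these lists and for Phkg1 and Dcxr, the largest falls among the called genes. Those that RefSeq gives are printed here. Each runs from 250 bases before to 50 after the gene's start, 5′ to 3′ on the gene's own strand, on assembly GRCr8. Capitals mark GC boxes (GGGCGG) and CCAAT boxes (CCAAT) on either strand. They lie at chr1:105178889-105179188 (plus strand) for Bcat2, chr3:126305334-126305633 (plus) for Ivd, chr6:109829676-109829975 (minus) for Aldh6a1, chr12:32474827-32475126 (plus) for Phkg1 and chr10:106506570-106506869 (minus) for Dcxr.
Bcat2: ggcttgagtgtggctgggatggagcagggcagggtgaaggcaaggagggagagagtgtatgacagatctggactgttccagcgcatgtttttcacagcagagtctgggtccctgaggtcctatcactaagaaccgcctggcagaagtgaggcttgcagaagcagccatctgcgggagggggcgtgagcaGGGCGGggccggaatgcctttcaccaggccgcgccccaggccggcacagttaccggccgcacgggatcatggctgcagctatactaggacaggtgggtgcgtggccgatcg
Ivd: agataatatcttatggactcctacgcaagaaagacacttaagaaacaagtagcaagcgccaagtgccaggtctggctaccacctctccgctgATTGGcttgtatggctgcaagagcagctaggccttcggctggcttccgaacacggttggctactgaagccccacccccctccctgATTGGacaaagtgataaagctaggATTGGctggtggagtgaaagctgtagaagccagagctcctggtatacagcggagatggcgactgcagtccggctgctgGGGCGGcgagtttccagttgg
Aldh6a1: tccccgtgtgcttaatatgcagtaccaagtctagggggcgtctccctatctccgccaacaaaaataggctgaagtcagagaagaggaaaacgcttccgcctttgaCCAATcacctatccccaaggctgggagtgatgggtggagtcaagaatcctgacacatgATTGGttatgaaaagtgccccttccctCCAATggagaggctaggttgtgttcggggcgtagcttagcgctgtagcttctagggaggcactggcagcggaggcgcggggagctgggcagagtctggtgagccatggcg
Phkg1: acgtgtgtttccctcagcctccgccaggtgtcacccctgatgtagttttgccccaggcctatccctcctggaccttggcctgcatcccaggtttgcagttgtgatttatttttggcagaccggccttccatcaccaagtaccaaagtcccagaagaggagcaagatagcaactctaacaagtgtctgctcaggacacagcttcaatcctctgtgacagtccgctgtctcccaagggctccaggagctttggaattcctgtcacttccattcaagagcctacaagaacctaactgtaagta
Dcxr: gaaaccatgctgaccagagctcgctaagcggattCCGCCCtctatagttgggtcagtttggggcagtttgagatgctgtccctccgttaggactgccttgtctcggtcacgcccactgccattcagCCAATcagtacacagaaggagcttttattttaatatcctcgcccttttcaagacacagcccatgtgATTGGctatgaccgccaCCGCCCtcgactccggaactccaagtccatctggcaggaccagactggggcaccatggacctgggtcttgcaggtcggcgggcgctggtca

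These 5 windows have little in common. Bcat2 holds 1 GC box, Ivd 1 GC box and 3 CCAAT boxes, Aldh6a1 3 CCAAT boxes, Dcxr 2 of each, and the Phkg1 window holds neither. Over the 61 called genes with a promoter in the table, 57.4% held a GC box and 44.3% a CCAAT box, against 55.2% and 37.1% of the 12558 tested genes with one, and 34.9% and 37.7% of all 27457 promoters. The other motifs, searched on both strands, were an E-box (CACGTG), a D-box (TTANGTAA), a cAMP response element (TGACGTCA), a forkhead site (TGTTTAC), a nuclear receptor half-site (AAGGTCA) and the MEF2 site. The E-box was found in 3 of the 61 (4.92%), against 8.83% of tested genes and 6.65% of all promoters. Each of the remaining 5 was found in 1 of the 61 (1.64%). Their shares among tested genes were 1.40%, 2.82%, 2.46%, 3.20% and 3.15% in the order given, and among all promoters 2.19%, 1.91%, 3.76%, 4.37% and 3.83%. A match is a description of the letters in these windows.

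Bcat2, the mitochondrial aminotransferase that takes the amino group from all 3 branched-chain amino acids, stood at 9.89, 10.13, 9.49 and 10.15 in controls and at 9.20, 9.15, 9.18 and 9.10 with metformin. The metformin animals were nearly identical, and the lowest control, replicate 3, was still above them. Bcat2 fell 1.69-fold (-0.76, SE 0.12, limma adjusted p = 0.00341). Ivd, isovaleryl-CoA dehydrogenase, which acts in the leucine branch, stood at 13.62, 13.69, 13.58 and 13.80 in controls and at 13.15, 13.02, 12.90 and 13.13 with metformin. The gap between the arms was wider than the spread within either. Ivd fell 1.54-fold (-0.63, SE 0.09, limma adjusted p = 0.00131).

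Ppm1k, the phosphatase that switches the dehydrogenase complex on, stood at 12.72, 13.05, 12.34 and 12.55 in controls and at 12.13, 11.95, 12.14 and 11.91 with metformin. The lowest control and the highest metformin animal were close, and control replicate 2 was the highest. Ppm1k fell 1.55-fold (-0.63, SE 0.14, limma adjusted p = 0.0359). Aldh6a1, methylmalonate semialdehyde dehydrogenase of the valine branch, stood at 16.70, 16.64, 16.48 and 16.58 in controls and at 16.41, 16.36, 16.32 and 16.19 with metformin, a fall of 1.22-fold (-0.28, SE 0.06, limma adjusted p = 0.0449) with arms that did not overlap. The counterpart of Ppm1k, the inhibitory kinase Bckdk, differed by -0.06 (95% interval -0.31 to 0.18).

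Genes of the same route that missed the threshold mostly lay below 0. Dbt, the dehydrogenase complex's acyltransferase, differed by -0.38 (limma adjusted p = 0.0533), and Bckdha and Bckdhb, its decarboxylase subunits, by -0.27 and -0.13. Mccc2 and Mccc1, the subunits of methylcrotonyl-CoA carboxylase after Ivd, differed by -0.56 (limma adjusted p = 0.0686, arms apart) and -0.25, and Auh, the hydratase after it, by -0.30. Slc3a2, the heavy chain of the leucine transporter, differed by -0.23. In the valine and isoleucine branch, Echs1, Mmut and Acad8 differed by -0.33, -0.32 and -0.26. Without control replicate 2 the median of the leucine list was -0.17 with 2 genes called, and that of the valine list -0.12 with 0 called.

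Other mitochondrial enzymes fell as well. Aldh4a1, which completes proline breakdown, fell 1.55-fold (-0.63, SE 0.10, limma adjusted p = 0.0041), from 9.52 to 9.80 in controls to 8.99 to 9.13 with metformin. Aldh2, the mitochondrial aldehyde dehydrogenase that clears acetaldehyde and lipid aldehydes, fell 1.36-fold and Echdc2, of the enoyl-CoA hydratase family, 1.30-fold. Pc, pyruvate carboxylase, which replenishes oxaloacetate, stood at 7.91, 7.96, 7.79 and 7.85 in controls and at 7.55, 7.46, 7.39 and 7.33 with metformin. It fell 1.36-fold (-0.45, SE 0.07, limma adjusted p = 0.00341) with arms well apart. Pc was the only call among 18 genes of pyruvate dehydrogenase and anaplerosis, whose median was 0.02. Pdhx, a structural subunit of pyruvate dehydrogenase, differed by 0.32 with arms apart, and Pdk4, the kinase that shuts the complex off under fasting, by 0.45 (95% interval -0.67 to 1.58).

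**Figure D2:**
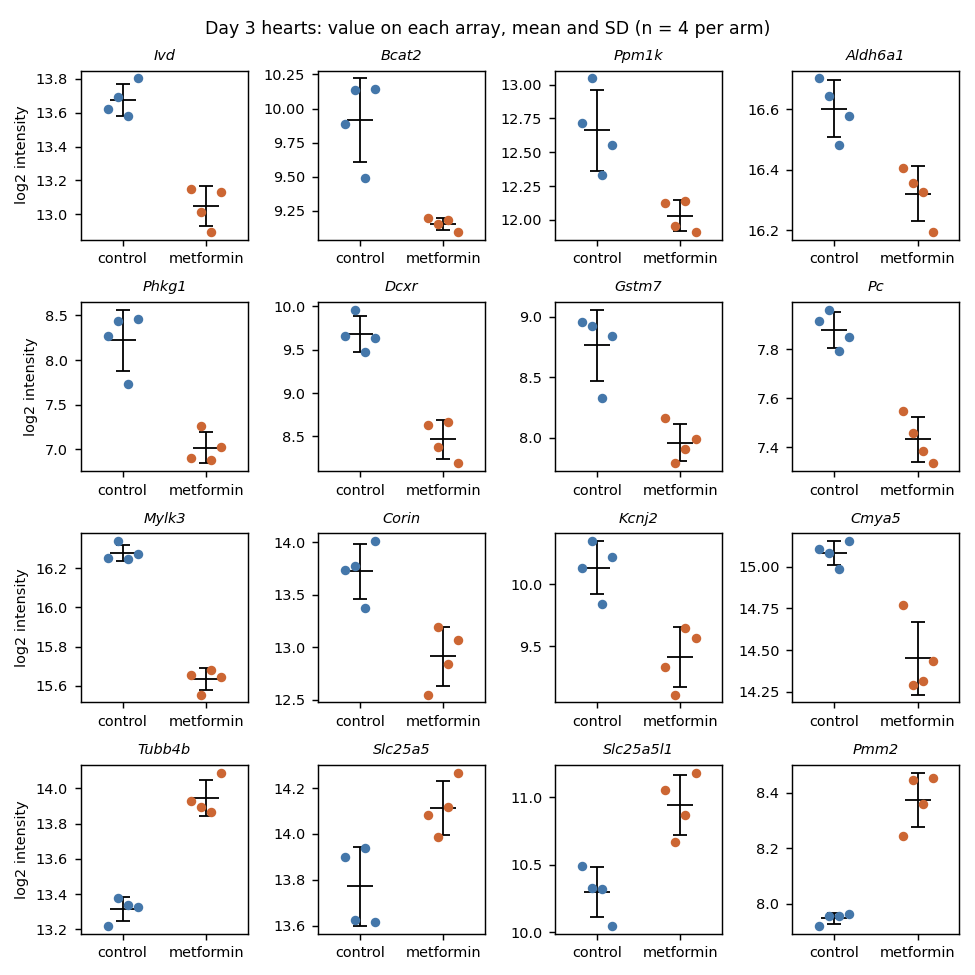
Log2 intensity of 16 called genes on each of the 8 day 3 arrays, controls in blue and metformin in orange in replicate order, with bars for the mean and SD (n = 4 per arm); the y axes differ and do not start at 0. In every panel the lowest point of one arm lies above the highest of the other, and control replicate 3 is the control nearest to the metformin animals for Phkg1, Bcat2 and Gstm7.

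Phkg1 encodes the catalytic gamma subunit of phosphorylase kinase in muscle and had the smallest p of all genes. It stood at 8.27, 8.43, 7.73 and 8.47 in controls and at 6.90, 7.26, 6.88 and 7.02 with metformin. Every metformin animal lay at least 0.47 below the lowest control. The fall was 2.31-fold (-1.21, SE 0.15, limma adjusted p = 0.000596). It was the only call among 19 genes of glycogen turnover, of which 10 lay below 0 with a median of -0.01. Phka1, the regulatory alpha subunit of the same kinase in muscle, differed by -0.22 with overlapping arms. Pygb, the brain-type glycogen phosphorylase that the heart also holds, differed by -0.34 with arms apart, and Gyg1, the primer of glycogen synthesis, by 0.16. In glucose uptake and glycolysis 0 of 21 genes were called, although Slc2a4 (the insulin-responsive transporter GLUT4), Hk2 (hexokinase 2) and Pfkfb2 (the cardiac regulator of fructose 2,6-bisphosphate) differed by -0.39, -0.39 and -0.68. The list's median was 0.00.

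Dcxr, which reduces dicarbonyls and L-xylulose, stood at 9.66, 9.96, 9.47 and 9.63 in controls and at 8.64, 8.37, 8.67 and 8.19 with metformin. This was the largest fall of all called genes, 2.32-fold (-1.21, SE 0.17, limma adjusted p = 0.00157), and the arms were far apart. It stood alone in its list: the other 11 tested genes of carbonyl, sugar and polyol reduction were not called, and Akr1a1 and Xylb, an aldehyde reductase and the kinase of the next sugar step, differed by -0.16 and 0.14.

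Most glutathione transferases lay below 0. Of 24 tested transferases and peroxidases, 20 lay below 0, with a median of -0.16, and 1 was called. Gstm7, a mu-class transferase, stood at 8.96, 8.93, 8.33 and 8.84 in controls and at 8.16, 7.79, 7.91 and 7.98 with metformin. The arms did not overlap, and Gstm7 fell 1.75-fold (-0.80, SE 0.13, limma adjusted p = 0.00341). The other mu-class genes did not pass: Gstm2 differed by -0.75, Gstm5 by -0.51, Gstm1 by -0.46, Gstm3 by -0.45 and Gstm4 by -0.40. Mu-class genes are close in sequence, and the deposited values do not show how well the probes separate them. Among NRF2 targets, the antioxidant genes that share this transcription factor, 0 of 18 were called, with a median of -0.08. Nqo1, a quinone reductase, came nearest at -0.58 (limma adjusted p = 0.0659, arms apart), and Nfe2l2, which encodes NRF2, differed by -0.28. Outside the lists, Selenbp1, a methanethiol oxidase, fell 1.66-fold, Oxr1, an oxidation resistance protein, 1.33-fold, and Lancl1, a glutathione-binding protein, 1.32-fold.

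Fatty acid oxidation ran the other way in sign, though with no rise that passed. Of 24 genes of the carnitine shuttle and beta-oxidation, 17 lay above 0 with a median of 0.15, and the single call was a fall. Acsf2, a medium-chain acyl-CoA synthetase, stood at 13.84, 14.52, 14.00 and 14.21 in controls and at 13.54, 13.29, 13.66 and 13.61 with metformin. Control replicate 2 was the highest and the arms did not overlap. Acsf2 fell 1.53-fold (-0.62, SE 0.12, limma adjusted p = 0.0171). Cpt1b, the muscle carnitine palmitoyltransferase, differed by 0.29, Slc25a20, the carnitine carrier, by 0.37 and Eci2, an enoyl-CoA isomerase, by 0.31, each with arms apart and none called. For PPAR-alpha targets 0 of 21 were called, 16 lay above 0 and the median was 0.21. Aqp7, a glycerol channel, had the largest difference of the targets named by the rule, 0.91, with overlapping arms. Of 6 genes of ketone body oxidation 5 lay below 0 and none was called. Oxct1, its rate-limiting transferase, differed by -0.11.

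**Figure D3:**
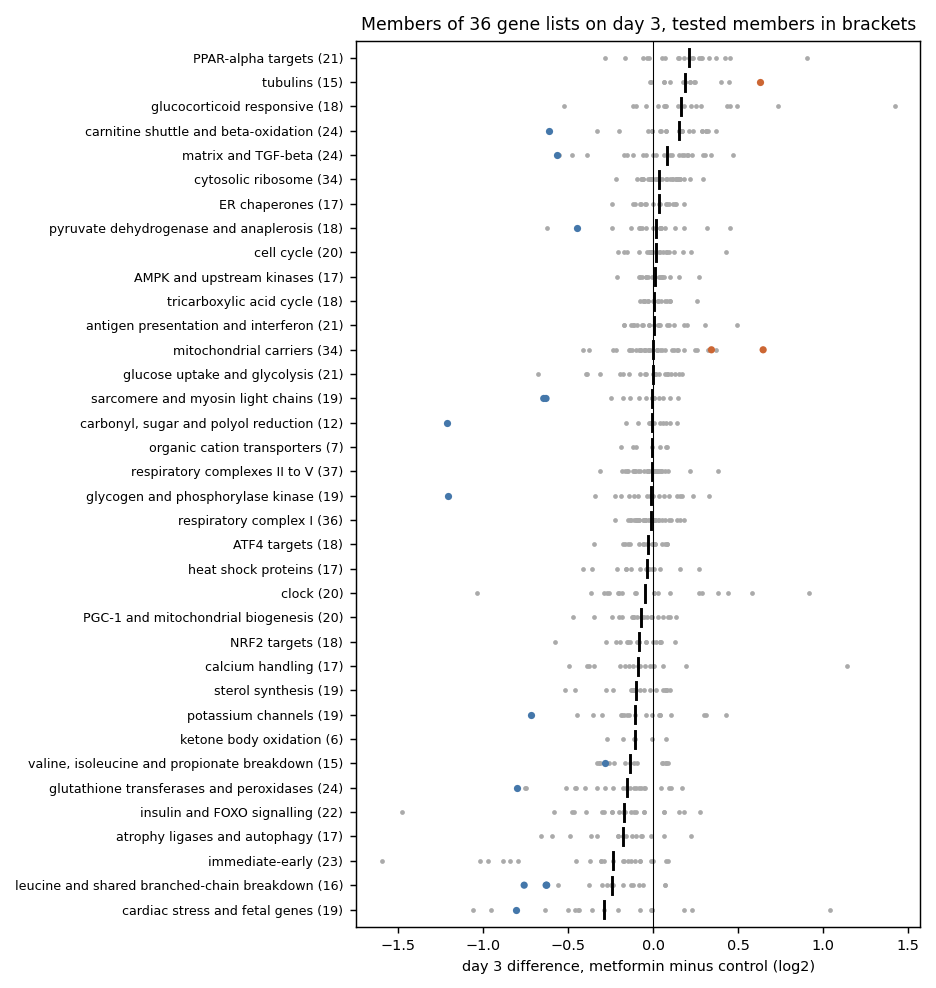
Day 3 difference (metformin minus control, log2) of each tested member of 36 gene lists, with the number tested in brackets, called members in blue (lower) or orange (higher), and the list's median as a bar. Medians run from -0.29 for cardiac stress genes to 0.21 for PPAR-alpha targets against -0.01 for all genes, and no list holds more than 3 calls.

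Of 19 sarcomere genes 2 fell, Mylk3 and Cmya5, and the list's median was -0.01. Mylk3, the cardiac myosin light chain kinase, stood at 16.25, 16.34, 16.25 and 16.27 in controls and at 15.65, 15.55, 15.68 and 15.64 with metformin. Within each arm the values lay close together, and the arms were far apart. Mylk3 fell 1.56-fold (-0.64, SE 0.08, limma adjusted p = 0.000596). Cmya5, or myospryn, a costamere protein that binds desmin and dystrophin partners, stood at 15.11, 15.08, 14.99 and 15.15 in controls and at 14.77, 14.29, 14.31 and 14.43 with metformin. It fell 1.55-fold (-0.63, SE 0.12, limma adjusted p = 0.0133) with no overlap. Ldb3 and Myom1 of the same list, proteins of the Z-disc and M-band, differed by -0.25 and -0.18 and were not called.

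Corin, the protease that cleaves the precursor of atrial natriuretic peptide, stood at 13.73, 13.77, 13.38 and 14.01 in controls and at 12.55, 13.19, 12.84 and 13.07 with metformin. The closest animals of the arms were 0.19 apart. Corin fell 1.75-fold (-0.81, SE 0.16, limma adjusted p = 0.0224). It was the only call among 19 cardiac stress and fetal genes, of which 16 lay below 0 with a median of -0.29. Corin's substrate Nppa varied widely in both arms, from 11.79 to 16.49 in controls and from 11.83 to 15.99 with metformin, and its difference of -0.44 had a 95% interval of -2.13 to 1.24. Nppb, the ventricular natriuretic peptide, differed by -0.01 and Npr3, their clearance receptor, by -0.96 with overlapping arms. Csrp3, the muscle LIM protein, differed by -0.50, and skeletal actin Acta1, a fetal gene of the ventricle, by 1.04 in the opposite direction; both had arms apart and neither passed.

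Among ion channels, Kcnj2, which carries the inward rectifier current that holds the resting potential, stood at 10.13, 10.35, 9.84 and 10.21 in controls and at 9.33, 9.11, 9.64 and 9.57 with metformin. The arms did not overlap, and Kcnj2 fell 1.65-fold (-0.72, SE 0.16, limma adjusted p = 0.0395). It was the only call among 19 potassium channel genes. The related Kcnj11 and Kcnj12 differed by -0.45 and -0.35 with overlapping arms. Calcium handling had 0 calls of 17 genes, with 13 below 0. Cacna1c, the pore of the L-type channel, and its partner Cacna2d1 differed by -0.39 and -0.35. Myocd, myocardin, a coactivator of serum response factor in cardiac and smooth muscle, fell 1.64-fold (-0.71, SE 0.14, limma adjusted p = 0.0224), from 11.19 to 11.54 in controls to 10.52 to 10.73 with metformin. Sspn, sarcospan of the dystrophin complex, fell 1.40-fold, Asb2, a muscle ubiquitin ligase adaptor, 1.41-fold, Myh14, a nonmuscle myosin, 1.27-fold, and Klhl33, a kelch protein, 1.83-fold. Sptb, a spectrin of red cells and striated muscle, fell 1.41-fold, and its highest control, at 10.83, was replicate 2, the array with the high erythroid score.

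Insulin signalling and autophagy genes lay mostly below 0. Of 22 genes of insulin and FOXO signalling, 17 lay below 0 with a median of -0.17 and 0 were called. Foxo1, Insr and Irs1, a transcription factor, the receptor and its docking protein, differed by -0.47, -0.39 and -0.59 with limma adjusted p values of 0.0659, 0.0665 and 0.0956, each with arms apart. Irs2, the other docking protein of the heart, ran from 9.57 to 10.69 in controls and from 8.30 to 9.33 with metformin, a difference of -1.48 (SE 0.44) that did not pass. Of 17 atrophy and autophagy genes, 15 lay below 0 with a median of -0.18 and 0 were called, with Ulk1 at -0.66, Trim63, the ubiquitin ligase MuRF1, at -0.49 and Pink1, a mitophagy kinase, at -0.33. The called genes Atg13, Fyco1, Calcoco1 and Ccpg1 also have roles in autophagy but are not on that list. They were picked out from the calls, so their number says nothing about autophagy genes as a whole. Atg13, which sits with Ulk1 in the complex that starts autophagosomes, stood at 10.78, 10.96, 10.44 and 10.64 in controls and 9.99, 10.20, 10.22 and 10.18 with metformin and fell 1.47-fold (-0.56, SE 0.09, limma adjusted p = 0.0041). Fyco1, which links autophagosomes to kinesin, fell 1.27-fold, and the receptors Calcoco1 and Ccpg1, which mark endoplasmic reticulum for degradation, 1.35-fold and 1.31-fold. The grouping of called genes outside the lists by role was made after their values were seen.

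The called genes that follow have roles in growth control, adhesion or cell signalling and, apart from Adamtsl4, belong to none of the lists. Sema5a, a membrane semaphorin, stood at 9.91, 10.06, 9.84 and 9.82 in controls and at 8.92, 9.17, 8.92 and 9.35 with metformin, a fall of 1.76-fold (-0.82, SE 0.11, limma adjusted p = 0.00145) with arms far apart. Adamtsl4, a matrix protein that binds fibrillin, stood at 7.43, 7.57, 7.43 and 7.28 in controls and at 6.76, 6.90, 7.01 and 6.78 with metformin. It fell 1.48-fold (-0.57, SE 0.09, limma adjusted p = 0.00341) and was the only call among 24 matrix and TGF-beta genes, whose median was 0.08, or -0.07 without control replicate 2. Tgfbi, Adam19 and Timp2 of that list differed by -0.55, -0.48 and -0.39, each with arms apart. Yap1, the coactivator held in check by the Hippo pathway, fell 1.22-fold, from 11.09 to 11.37 in controls to 10.88 to 10.96 with metformin (limma adjusted p = 0.0261). Ptpn14, a phosphatase that binds YAP, fell 1.31-fold. Nlk, a kinase of Wnt signalling, fell 1.21-fold and Hipk3, a nuclear kinase, 1.26-fold. Map3k20, the kinase ZAK that responds to stalled ribosomes, fell 1.45-fold (-0.54, SE 0.09, limma adjusted p = 0.0041), and Cdon, a hedgehog coreceptor, 1.48-fold. The phosphatases Ptprk and Ptpn13 fell 1.52-fold and 1.34-fold, the kinases Ros1 and Lmtk2 1.37-fold and 1.25-fold, and Kank1, an adaptor of focal adhesions, 1.36-fold.

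The remaining falls were spread over many cell functions. Prune1, a phosphoesterase, stood at 8.66, 8.61, 8.47 and 8.64 in controls and at 8.10, 8.16, 8.18 and 8.23 with metformin and fell 1.34-fold (-0.43, SE 0.07, limma adjusted p = 0.00341), with no overlap. Tmem71 and Ypel2 fell 1.84-fold and 1.83-fold, Tgm1, a transglutaminase, 1.73-fold and Ypel3, a paralogue of Ypel2, 1.43-fold. Tor1aip1 and Sun2, proteins of the inner nuclear membrane, fell 1.36-fold and 1.22-fold. In the secretory route, Man2a2, a Golgi mannosidase, fell 1.36-fold, Extl3, which starts heparan sulfate chains, 1.35-fold, and Uso1, a vesicle tether, 1.21-fold. Ppp1r15a, which restarts translation after stress by directing dephosphorylation of eIF2-alpha, fell 1.62-fold. Cds2, which makes CDP-diacylglycerol for phosphoinositides, fell 1.26-fold. Of genes acting on chromatin, RNA or protein turnover, Zfp106 fell 1.32-fold, Lsm14b 1.33-fold, Rad54l2 1.35-fold, and Dcaf11 1.27-fold, and Akap8l and Actr8 fell by 0.26 and 0.25 on the log2 scale. Gpr137c, Apol9a, Gfod1, Entrep1, Ccser2, Sgsm2 and Plekha6 fell between 1.23-fold and 1.59-fold, and 1 called gene with a placeholder name also fell.

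Only 8 genes rose. Pmm2, the phosphomannomutase that feeds N-glycosylation, stood at 7.92, 7.96, 7.95 and 7.96 in controls and at 8.24, 8.45, 8.36 and 8.45 with metformin. The controls were nearly identical and all metformin animals lay above them. Pmm2 rose 1.34-fold (0.43, SE 0.06, limma adjusted p = 0.00131). Tubb4b, a beta-tubulin, stood at 13.22, 13.38, 13.34 and 13.33 in controls and at 13.93, 13.89, 13.86 and 14.09 with metformin. It rose 1.55-fold (0.63, SE 0.09, limma adjusted p = 0.0019) with arms far apart. Of 15 tubulin genes 13 lay above 0, with a median of 0.19 (0.12 without control replicate 2), and Tubb4b was the only call. Tuba8, the alpha-tubulin of heart and muscle, came nearest at 0.45 (limma adjusted p = 0.0664, arms apart). Tubb5 and Tuba1b differed by 0.40 and 0.22 and overlapped between arms.

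Both calls among 34 mitochondrial carriers were rises of the adenine nucleotide translocase family, which exchanges ADP for ATP across the inner membrane. Slc25a5, its second isoform, stood at 13.90, 13.63, 13.94 and 13.62 in controls and at 14.08, 13.99, 14.12 and 14.27 with metformin. The nearest animals of the arms were close, and Slc25a5 rose 1.27-fold (0.34, SE 0.08, limma adjusted p = 0.0461). Slc25a5l1, a copy named after it, stood at 10.49, 10.33, 10.32 and 10.05 in controls and at 11.05, 10.67, 10.87 and 11.18 with metformin and rose 1.57-fold (0.65, SE 0.12, limma adjusted p = 0.0169). The copies may share probe sequence, so these are not counted as separate evidence of a change. The carriers' median was 0.00. Slc25a13, an aspartate-glutamate carrier, differed by 0.32 with arms apart.

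Clec9a, a receptor of cross-presenting dendritic cells, rose 1.43-fold at a low level, standing at 5.01, 4.85, 5.15 and 5.11 in controls and at 5.58, 5.81, 5.30 and 5.48 with metformin (0.51, SE 0.10, limma adjusted p = 0.0238). The arms did not overlap. The other tested dendritic markers, Flt3, Itgax, Zbtb46 and Batf3, differed by -0.03, 0.09, 0.08 and 0.01, and their part in the Clec9a difference was not tested. Tstd3, of the rhodanese family, rose 1.55-fold and Myo1c, an unconventional myosin that takes part in GLUT4 transport in fat cells, 1.21-fold. A transcript cluster that carries only the platform symbol EVX1 rose 1.54-fold from 5.54 to 6.17. Its rat gene was not settled by the name tables.

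Genes tied to metformin's known routes stayed without calls. Among AMPK and its upstream kinases 0 of 17 were called with a median of 0.01. Prkaa2, the catalytic subunit that dominates in heart muscle, differed by -0.03 (95% interval -0.19 to 0.13). Complex I had 0 calls of 36 genes and complexes II to V had 0 of 37, both with a median of -0.01. In the tricarboxylic acid cycle 0 of 18 were called, and Idh3a, a subunit of isocitrate dehydrogenase, differed by 0.26 with arms apart. Of 7 organic cation transporters 0 were called. Slc22a3 and Slc47a1, which carry metformin, differed by -0.10 and 0.04. Of 20 genes of PGC-1 and mitochondrial biogenesis 15 lay below 0, with Ppargc1a itself at -0.47 (95% interval -0.89 to -0.05) and Sirt1 at -0.35, none called.

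Stress, hormone and clock responses also held no calls. For immediate-early genes 21 of 23 lay below 0 with a median of -0.24, and the spread between animals was wide: Nr4a1, a nuclear receptor induced within minutes, ran from 8.33 to 9.58 in controls and from 6.63 to 8.88 with metformin, and Fos from 5.09 to 7.40 and from 4.89 to 5.52. Glucocorticoid-responsive genes lay above 0 in 14 of 18 with a median of 0.16, which was 0.09 without control replicate 2. The list's median had the opposite sign on day 1 (-0.24) and day 14 (-0.37). Its day 3 scores overlapped, from -0.25 to 0.15 in controls and from -0.25 to 0.36 with metformin. Zbtb16, a target of the glucocorticoid receptor, ran from 7.31 to 7.96 in controls and from 8.62 to 9.78 with metformin, a difference of 1.42 (SE 0.47, limma adjusted p = 0.20). Of 20 clock genes, Bmal1, the activator of the loop, came nearest at -1.04 (SE 0.25, limma adjusted p = 0.0659, arms apart), while Nr1d1 and Dbp, which peak opposite to it, differed by 0.92 and 0.58 with overlapping arms. A separate clock score took the mean deviation of Dbp, Tef, Hlf, Per2, Per3, Nr1d1, Nr1d2 and Ciart. From it the mean deviation of Bmal1, Npas2, Nfil3 and Clock was subtracted. This clock score ran from -0.70 to -0.03 in controls and from -0.21 to 1.36 with metformin. With that score as a covariate 25 genes were called, of which 22 are among the 76. Time of sampling is not given in the sources used here. The score comes from clock genes on these same arrays and itself differed between the arms. The covariate therefore cannot tell time of sampling from the arm, and the part of sampling time in the differences was not tested. Sterol synthesis, ATF4 targets, endoplasmic reticulum chaperones, heat shock proteins, cytosolic ribosome, antigen presentation and the cell cycle had 0 calls among 19, 18, 17, 17, 34, 21 and 20 genes, with medians from -0.10 to 0.03. In sterol synthesis Insig1 and Fdft1, a feedback regulator and squalene synthase, differed by -0.52 and -0.46 with arms apart.

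Markers of blood and vessel cells differed between the arms mainly through control replicate 2. Erythroid markers lay below 0 in 9 of 9 with a median of -0.51, and without that array in 5 of 9 with a median of -0.02. Summed erythroid levels ran from 20.23 to 21.12 in controls and from 19.94 to 20.35 with metformin. Endothelial markers lay above 0 in 6 of 7 with a median of 0.29, and in 3 of 7 with a median of -0.0038 without it, with summed levels of 14.86 to 16.57 in controls and 16.13 to 16.55 with metformin. Smooth muscle and pericyte markers had a median of 0.33 over 8 genes, and 0.06 without it. Mast cell markers differed in score beyond control replicate 2. All 5 lay above 0, with a median of 0.38, or 0.31 without that array. Their scores ran from -0.42 to 0.07 in controls and from 0.13 to 0.46 with metformin. Summed levels overlapped slightly, from 8.66 to 9.162 in controls and from 9.157 to 9.64 with metformin. The median of these markers was -0.17 on day 1 and 0.14 on day 14. Cma1, mast cell chymase, differed by 0.57 (limma adjusted p = 0.0704, arms apart), Cpa3 by 0.54 and Kit by 0.38. The Cma1 mean in controls, 4.54, lay below the median of every array. No marker of these types was called, and no tested marker was at 0. Their part in the falls was not tested beyond the values here. Among the 68 genes that fell, control replicate 2 was the highest control in 38 (55.9%, against 34.3% of all genes) and control replicate 3 the lowest in 49 (72.1%, against 27.6%). The 68 had a median of -0.45 with all arrays and -0.43 without control replicate 2, and 22 of them passed the threshold then. All 68 kept their direction, but this was fixed in advance, since arms that do not overlap cannot change order when an array is dropped. Without control replicate 3 the count of calls was 144.

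**Figure D4:**
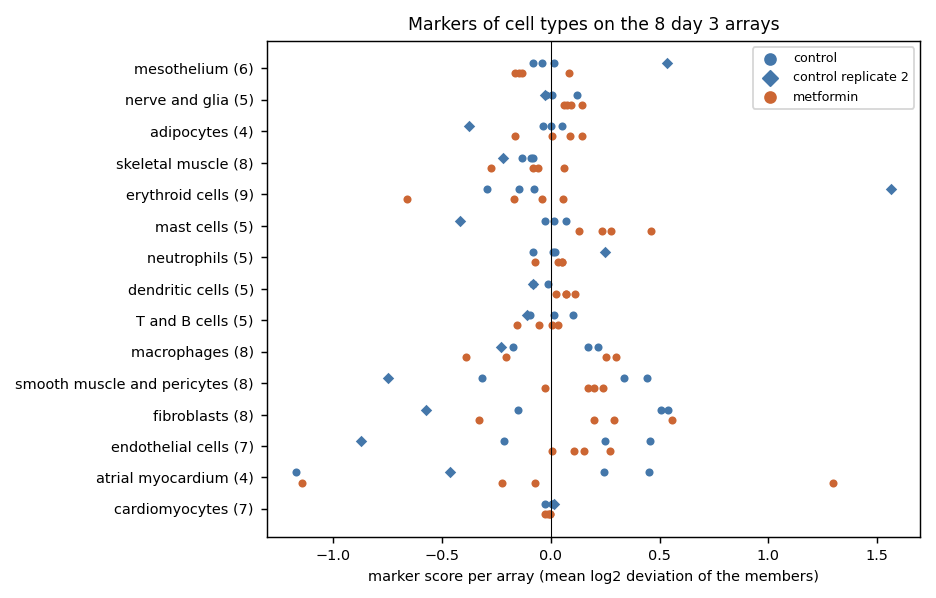
Marker score per array (x axis, mean log2 deviation of the members from their mean over 24 arrays) for 15 cell types on the 8 day 3 arrays, with the number of markers tested in brackets. Control replicate 2 (diamonds) lies at 1.56 for erythroid cells and at -0.87 for endothelial cells, away from the other 7 arrays, while cardiomyocyte scores, several of whose members sit near the top of the scale, run from -0.02 to 0.02.

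The differences of the 76 genes on days 1 and 14 were also read, since those days have animals and controls of their own. The 68 genes that fell on day 3 had a median difference of -0.19 on day 1 and -0.33 on day 14, and 65 and 67 of them lay below 0 there. Of the 8 that rose, 7 and 6 lay above 0, with medians of 0.14 and 0.17. The genes were chosen for day 3, which favours larger differences on that day. The day 3 difference was the larger in size in 75 of the 76 against day 1 and in 68 against day 14. Over all genes limma called 0 on day 1 (0%) and 45 on day 14 (0.281%), and 18 genes were called on both day 3 and day 14, all lower, which is 23.7% of the calls of day 3 and 40.0% of those of day 14. The tests of both days share each gene's estimate of spread over the 24 arrays. This favours calls of the same gene on both days, so the calls of the days are not independent. Mylk3 differed by -0.25, -0.64 and -0.56 on days 1, 3 and 14, Dcxr by -0.25, -1.21 and -1.13, and Phkg1 by -0.51, -1.21 and -0.88. Other genes were near 0 on both other days, such as Zfp106 (0.02 and -0.09) and Kank1 (-0.02 and -0.07). In all 68, the metformin mean of day 3 lay below the control means of days 1 and 14 too, and in 20 of the 68 the day 3 controls were the highest of the 3 control groups, against 25.1% of all genes.

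**Figure D5:**
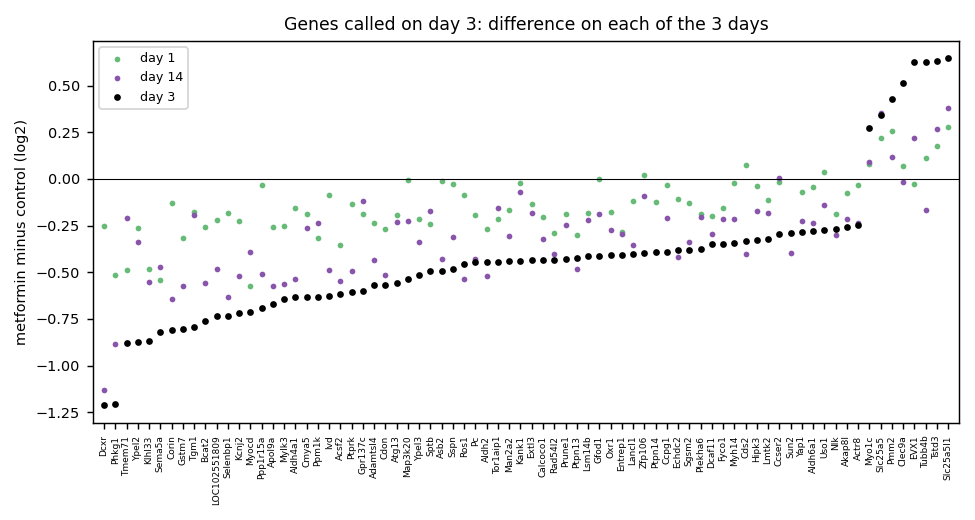
Difference (metformin minus control, log2, y axis) of the 76 genes called on day 3 (x axis, ordered by that difference), on day 3 (black), day 1 (green) and day 14 (purple). Most genes lie on the same side of 0 on all 3 days, and Tubb4b, at 0.63 on day 3, lies at 0.11 on day 1 and -0.17 on day 14.

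The difference between days was tested directly in limma. No gene had a day 3 difference that departed from that of day 1 at an adjusted p under 0.05 (smallest adjusted p = 0.806, 757 genes or 4.72% at an unadjusted p under 0.05), and none departed from day 14 (smallest adjusted p = 0.0661, 762 genes or 4.75%). The smallest p against day 14 belonged to Tubb4b, followed by Vash2, an angiogenesis regulator, at -0.42 on day 3 and 0.26 on day 14, then Prmt9, Fam107a, Inpp1 and Ins1. Against day 1 the smallest p values belonged to Mir196b at 0.38 and -0.62, Ivd at -0.63 and -0.09, Resf1 at 0.49 and -0.31, Map3k20 at -0.54 and -0.01, Pm20d1 at -0.44 and 0.42, and a gene with a placeholder name. With 4 animals in each of the 4 groups behind such a contrast, an adjusted p above the threshold does not show that the days were alike.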

How the data were processed

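Left ventricular RNA was hybridised as biotin-labelled cDNA to 1-colour arrays, 4 per group in 6 groups. The deposited table holds linear intensity values, normalized by the authors, 1 per array and transcript cluster. Per the submitters' processing notes the method was RMA. How it was run, and with which software, is not given in the sources used here. The tests assumed log2 values, so log2 of the deposited intensity was taken first. Of 68842 clusters, 23446 had 1 symbol, 505 several and 44891 none in the platform annotation. Symbols were updated through RefSeq's gene table (assembly GRCr8), which matched 22077 clusters by gene ID, 1227 by symbol and 127 by synonym. The platform's own symbol stayed for 15. A gene was represented by its single-symbol cluster with the highest mean and entered the tests if 4 or more arrays showed it above their median, as 16031 of 22037 genes did. Group means were fitted to the 24 arrays together with limma 3.58.1 in R 4.3.3, two-sided, with Benjamini-Hochberg adjustment over all genes tested. Labels do not say whether the animals of a group shared a cage.

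Named were all called genes without a placeholder name, up to 3 further members per pathway list with the smallest p (some are left out, a choice made with their values known), the 6 genes with the smallest p of each contrast between days and 13 preset genes, of which those tested and mentioned are given. P2rx7, the remaining Gstm and Bckd genes, Mccc1, Auh, Phka1, Nr1d1, Fos, Tubb5, Tuba1b and the marker genes named were added after values were seen. Members and lists were chosen with earlier results of these data known. Lists are described by counts and medians, without a set test. Promoters are RefSeq's, and coordinates are those of GRCr8. Alternatives covered normalization, filter, samples in the fit, a replicate block, eBayes options, cluster choice, 3 covariates and each array left out, and the endothelial covariate was added after seeing the data. Simulated data with known changes served as a test of the code.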

Additional observations from a re-analysis of the deposited data

Results flagged for a closer look

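For 15 genes named by the rule or added, of 216 looked at in both arms, 1 of the 4 day 3 arrays of an arm lay far from the other 3 (its gap to the nearest, over the whole range, was above Dixon's 95% critical value). Chance marks about 1 in 20 groups, and 432 groups of genes were looked at. Control replicate 3 was low for Ptpn13 (7.83 against 8.10 and above), Slc25a13 (11.82 against 12.09 and above) and Ogdh (17.16), and high for Ier3 (7.03 against 6.45 and below). Metformin replicate 1 was low for Atg13 (9.99), Cacna1c (12.17), Atp5mc2 (14.17), Ldb3 (13.48), Ccnd1 (8.76) and Abcc1 (8.26), and metformin replicate 2 was low for Myom1 (15.44). Control replicate 2 was low for Ccne1 (4.69) and high for the beta-globin Hbb-bs (18.54 against 16.99 and below). Control replicate 4 was high for Rora (10.21), and metformin replicate 4 for Khk (5.20).

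Among 102 list scores in both arms, 9 stood out in the same way. In control replicate 2 these were the scores of erythroid cells (1.56), mesothelium (0.53) and PGC-1 and mitochondrial biogenesis (0.16). In control replicate 4 it was the dendritic cell score (-0.011 against -0.081). With metformin they were the clock list (0.19) and mesothelium (0.082) in replicate 3, PPAR-alpha targets (0.17) and neutrophils (-0.073) in replicate 1, and glucocorticoid-responsive genes in replicate 4 (-0.25, against 0.27 and above in the other 3).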

How the results depend on the processing

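The count of genes called on day 3 (76 in all) was 82 with the stricter filter of 12 arrays or with eBayes trend and robust options, 86 after cyclic loess, 74 with the mean over clusters, 51 with an erythroid covariate, 42 after a second quantile normalization or centring of each array on its median, 48 with no filter, 25 with a clock covariate and 3 with only the day 3 arrays, of which 2, Mylk3 and Dcxr, are among the 76. With an endothelial covariate, chosen after seeing the data, it was 105, with 75.2% lower against 89.5%. Leaving out 1 array gave 27 (without control replicate 2) to 144 (without control replicate 3), with 29 without control replicate 4. The count was 39 and 45 when metformin replicate 4 or 1 was dropped, and 51 to 57 for the others. In each of the 8, 21 genes were called, among them Phkg1, Mylk3, Ivd, Bcat2, Dcxr, Gstm7, Pc, Pmm2 and Tubb4b. By contrast, Uso1 and the EVX1 cluster were lost in all 8. Ppm1k, Aldh6a1, Apol9a, Calcoco1, Ccpg1, Dcaf11, Fyco1, Lmtk2, Nlk, Ppp1r15a, Sgsm2 and Ypel2 were lost in 7 of the 8. Kcnj2 and Clec9a were among those lost in 6, Corin and Slc25a5 among those lost in 5, and Acsf2 and Cmya5 among those lost in 3. The 75 called genes with names kept their sign in each setting run. In the fits without 1 array this was fixed in advance, since their arms do not overlap. The other settings use the same 8 day 3 arrays, so the kept signs are no separate evidence. The cause of the changes in count was not tested, beyond the fewer arrays or the larger number of genes tested. With the replicate number as a block within day the count was 29, of which 24 are among the 76; same-numbered day 3 animals had correlations of deviations of -0.03, -0.12, -0.06 and 0.06, so the numbers were not taken to pair animals. Genes departing from day 14 numbered 0, but 1 with no filter (Taar3, not tested otherwise) and 1 with trend and robust options (Tubb4b); departures from day 1 and all counts without 1 array stayed at 0. Scaling moved the median of all genes from -0.01 to at most -0.02.

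Among genes that were not called, signs turned for Esrrg (0.076) and Hyou1 (0.050) with the mean over clusters, for Dbp (-0.050), Nr1d1 (-0.26), Slc47a1 (-0.048) and Nppb (0.30) with the clock covariate, for Ogdh after cyclic loess (-0.0075) and a second quantile normalization (-0.0042), for Nppb after the latter (0.026), and for Klf15 with the endothelial covariate (0.0043). Leaving out 1 array gave ranges across 0 for Cdh5 (-0.0038 to 0.65), Bckdhb (-0.24 to 0.030), RT1-Da (-0.38 to 0.024), Klf15 (-0.34 to 0.077), Nppa (-1.47 to 0.42), Bckdk (-0.10 to 0.0049), Prkaa2 (-0.060 to 0.0055), Slc47a1 (-0.10 to 0.14) and Nppb (-0.53 to 0.42). The fit over 24 arrays assumes that the spread within groups is alike on all days. Small changes and genes near the ceiling of the scale are the least resolved.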

Other observations

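The largest difference of any gene on day 3 belonged to P2rx7, an ATP-gated cation channel best known from immune cells, and it was not called. Its values were 4.74, 4.44, 4.41 and 4.86 in controls and 6.42, 7.93, 7.29 and 6.58 with metformin, a difference of 2.44 (SE 0.77, limma adjusted p = 0.179). The arms were far apart on day 3, but on the other days values split within the arms. On day 1 controls stood at 6.94, 7.55, 4.68 and 7.80 and metformin animals at 8.61, 4.99, 8.38 and 6.99. On day 14 controls stood at 4.49, 4.38, 4.33 and 4.84 and metformin animals at 7.83, 7.05, 4.40 and 4.52. Over the 24 arrays the values fall into a low cluster near 4.3 to 5.0 and a high one from 6.4 upward, with animals of both arms in each. The gene was chosen after its values were seen. In all, 20 genes differed by over 2-fold on day 3, 14 lower and 6 higher, and 2 of them were called.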
